A study of Mus musculus with 10 samples.

Results

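HA-tagged SOX15 and SOX2 were mapped by chromatin immunoprecipitation and sequencing (ChIP-seq) in mouse embryonic stem cells kept in 2i/LIF, a medium used to maintain naive pluripotency. The HA tag was knocked in for either factor, so the precipitated protein was the tagged one in both kinds of cell, and all cells were fixed for 5 min in 1% formaldehyde. The series has 3 SOX15-HA and 2 SOX2-HA ChIP libraries, whose peak lists are used here, and 3 SOX15 and 2 SOX2 input libraries, which are not analysed here. How many lines or clones were used, and whether replicates were separate cultures, is not stated in the labels. The account below covers 10 genes of the SOX family: Sox1, Sox3, Sox4, Sox9, Sox11, Sox13, Sox15, Sox17, Sox18 and Sox21. They were chosen by name, and are 10 of 21631 genes annotated as protein-coding on the 20 chromosomes that carry peaks. A peak was counted for a gene when its summit lay within 50 kb of the gene body.

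SOX proteins are transcription factors that bend DNA through an HMG box, and the family is split into lettered subgroups by the likeness of that box. SOX1, SOX2 and SOX3 form group B1, SOX21 belongs to group B2, SOX4 and SOX11 to C, SOX13 to D, SOX9 to E, SOX17 and SOX18 to F, and SOX15 is the single member of G. SOX2 is a core factor of pluripotency, and SOX15 is also made in mouse embryonic stem cells. Many of the other members act later, in neural, endodermal, vascular or skeletal lineages. Expression was not measured in these files, so the identity of the cells could not be checked against marker RNAs.

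Peak numbers were 217, 672 and 437 for SOX15 replicates 1, 2 and 3, and 2676 and 4817 for SOX2 replicates 1 and 2. A SOX15 region was called reproducible when peaks of at least 2 of the 3 SOX15 libraries overlapped, and a SOX2 region when peaks of both SOX2 libraries did. The fold enrichment is the authors' own value for each peak, and it describes a peak's place within its own list. Percentiles below rank folds within 1 list, with 100 for the highest. The lists give no read counts, so depth is unknown, and a gene without a peak may have one below the caller's threshold. By q-value, SOX15 replicate 3 reached to weaker peaks, with a smallest −log10 q-value of 1.31, against 2.76 and 2.03 in SOX15 replicates 1 and 2. Fold gave another order: the median was 6.41 in SOX15 replicate 3, against 8.34 and 5.32 in SOX15 replicates 1 and 2.

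Of the 10 genes, Sox15 alone had a reproducible SOX15 region within 50 kb, which 2.26% of all 21631 protein-coding genes had. The protein-coding gene nearest to that region was Eif4a1, not Sox15. A peak of at least 1 SOX15 library lay within 50 kb of 4 genes, Sox13, Sox15, Sox18 and Sox21, against 8.11% of all genes. SOX2 regions found in both SOX2 libraries lay near 5 genes, Sox13, Sox21, Sox18, Sox9 and Sox15, against 14.2% of all genes. A peak of at least 1 SOX2 library lay near the same 5, against 26.0% of all genes. The other 5, Sox1, Sox3, Sox4, Sox11 and Sox17, had no peak of any of the 5 libraries within 50 kb. Short genes had smaller windows: of the 9 SOX genes with a body under 10 kb, 4 had a reproducible SOX2 region, against 9.66% of all genes of that size. The genes were chosen with earlier results known, so no test was made of these counts.

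By library, SOX15 replicate 1 had a peak near 0 of the 10 genes (2.29% of all genes), SOX15 replicate 2 near 1 (5.78%) and SOX15 replicate 3 near 4 (4.26%). SOX2 replicate 1 had a peak near 5 (15.5%) and SOX2 replicate 2 near 5 (24.9%). Both SOX2 libraries called the same genes, whereas the SOX15 count came mostly from replicate 3. Without SOX15 replicate 3, a SOX15 peak lay near 1 gene, Sox15, instead of 4. Without SOX15 replicate 2 or without SOX15 replicate 3, 0 genes had a reproducible SOX15 region. The share of all genes was not worked out with a library left out. These lower counts therefore cannot be read as particular to the SOX genes.

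**Figure D1:**
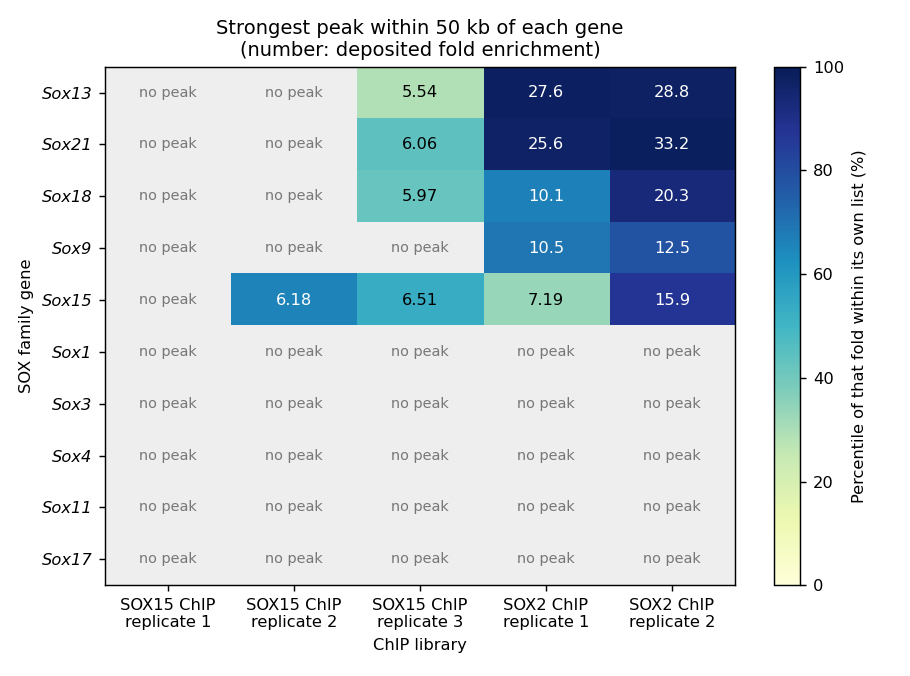
Deposited fold enrichment of the strongest peak within 50 kb of each SOX gene (rows) in each ChIP library (columns); the colour is the percentile of that fold within its own list, in percent. Sox13 and Sox21 stand near the top of both SOX2 lists, at 27.6 and 28.8 and at 25.6 and 33.2, and the lower 5 genes have no peak in any library.

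The SOX15 lists held 0, 3 and 5 peaks within 50 kb of the 10 genes, in replicates 1, 2 and 3. The SOX2 lists held 7 and 8. As a share of its list that was 0%, 0.446% and 1.14% for SOX15 (exact Clopper-Pearson 95% intervals 0 to 1.69, 0.0922 to 1.30 and 0.373 to 2.65), and 0.262% and 0.166% for SOX2 (0.105 to 0.538 and 0.0717 to 0.327). The intervals cover counting error only. They treat peaks as independent, although the 3 peaks of SOX15 replicate 2 all lay near Sox15, so they may be too narrow. SOX15 replicate 1 lay below both SOX2 libraries and SOX15 replicates 2 and 3 above them, so the groups overlapped. The mean share was 0.530% ± 0.577 for SOX15 (SD, n = 3) and 0.214% ± 0.0675 for SOX2 (SD, n = 2), a difference of 0.316 percentage points that was within the spread (two-sided exact permutation test, p = 0.6, where the smallest possible is 0.1). It was 0.00938 without SOX15 replicate 3 and 0.581 without SOX15 replicate 1.

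The 8 SOX15 peaks fell into 7 regions, of which 1 was reproducible, and the 15 SOX2 peaks into 9 regions, of which 6 were. A SOX gene was the nearest protein-coding gene of 2 of the 8 SOX15 peaks and 7 of the 15 SOX2 peaks. The other 14 peaks lay nearer to neighbouring genes: Eif4a1, Cd68 and Tnfsf12 near Sox15, Prpf6 near Sox18 and Ren1 near Sox13. Positions are given in mm10, whose coordinates the RefSeq table of GRCm38.p6 shares.

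Sox21 (chromosome 14, 118233233 to 118237030, minus strand) had the highest SOX2 region of the 10 genes by mean percentile over both SOX2 libraries, while in SOX2 replicate 1 alone a peak inside Sox13 ranked above it. SOX21 is a repressor of group B2 that counters the group B1 factors in neural progenitors. The SOX15 replicate 3 peak (118230333 to 118230541) had a fold of 6.06, and SOX15 replicates 1 and 2 had no peak within 50 kb. The SOX2 peaks (118230149 to 118230640 in replicate 1 and 118230070 to 118230822 in replicate 2) had folds of 25.6 and 33.2, which put them at rank 81 of 2676 and 61 of 4817. All 3 summits lay past the 3′ end of the gene, at 2.84 kb in SOX15 replicate 3 and at 2.88 and 2.86 kb in SOX2 replicates 1 and 2. Sox21 was the nearest protein-coding gene in each library, and the SOX15 summit was 39 and 19 bp from those of SOX2 replicates 1 and 2. The SOX2 peaks were 492 and 753 bp wide, against list medians of 304 and 331 bp. Among the 2369 reproducible SOX2 regions, ordered by mean percentile of fold, that of Sox21 was number 48.

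Sox13 (chromosome 1, 133382300 to 133424459, minus strand) had the other high-ranking region, and its peaks lay inside the gene. SOX13 is a group D protein, a group known for dimer formation through a coiled coil and for lacking a transactivation domain of its own. The SOX15 replicate 3 peak (133397606 to 133397930) had a fold of 5.54, and SOX15 replicates 1 and 2 had none within 50 kb. The SOX2 peaks (133397606 to 133398078 and 133397550 to 133398149) had folds of 27.6 and 28.8, at rank 61 of 2676 and 114 of 4817. The summits lay 26.8 kb from the 5′ end of the gene in SOX15 replicate 3, and 26.6 kb from it in both SOX2 libraries. Here the SOX15 summit was farther from the SOX2 summits than at Sox21, 181 and 214 bp away at lower coordinates. The region was number 54 of the 2369 reproducible SOX2 regions. Exons and introns are not in the table used, so the place within the gene cannot be stated more closely.

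A second reproducible SOX2 region counted for Sox13 lay past its 3′ end and nearer to Ren1, the renin gene. Its folds were 9.56 and 12.9 in SOX2 replicates 1 and 2, with summits 41.8 and 41.6 kb from Sox13 and 10.1 and 10.0 kb from Ren1. SOX2 replicate 2 had 1 more peak in that stretch, with a fold of 4.90, and no SOX15 library had one. The region was number 855 of 2369, so the 2 SOX2 regions of Sox13 differed widely in rank.

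**Figure D2:**
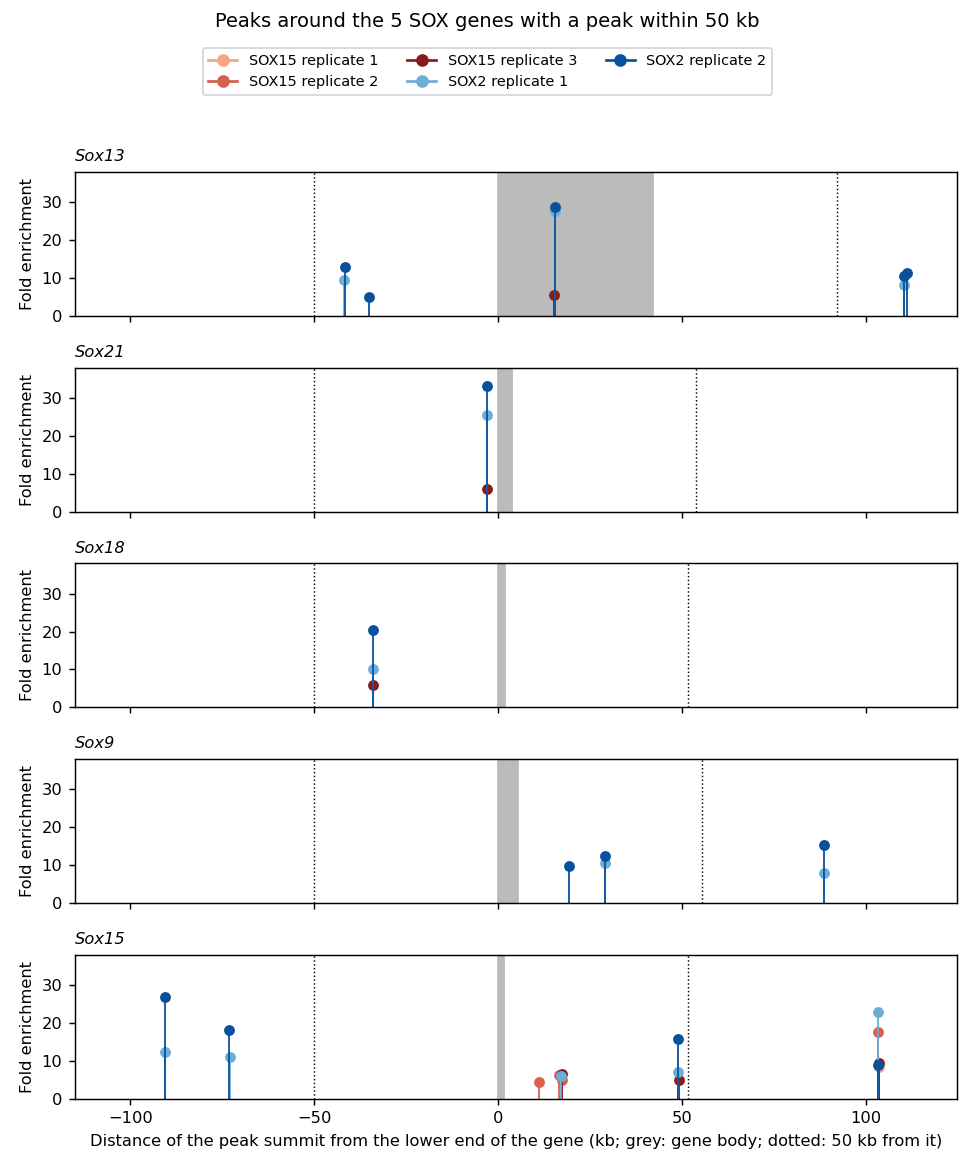
Deposited fold enrichment (vertical axis) of every peak around Sox13, Sox21, Sox18, Sox9 and Sox15, by distance of its summit in kb from the lower end of the gene; grey marks the gene body, dotted lines 50 kb from it, and colours the 5 libraries. The peaks of SOX15 replicate 3 stand at SOX2 positions around Sox13, Sox21, Sox18 and Sox15, and Sox9 has SOX2 peaks only.

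Sox18 (chromosome 2, 181669837 to 181671640) encodes a factor of blood and lymph vessel endothelium, and its region lay inside a neighbouring gene. The SOX15 replicate 3 peak (181635729 to 181635937) had a fold of 5.97, with no peak in SOX15 replicates 1 and 2. The SOX2 peaks (181635670 to 181635982 and 181635598 to 181636023) had folds of 10.1 and 20.3, at percentiles 66.6 and 93.0 of their lists. All 3 summits were 34.0 kb from Sox18 and inside Prpf6, a gene of a splicing factor, and the SOX15 summit was 23 and 11 bp from the SOX2 summits. In the window of Sox18 there were 6 other protein-coding genes.

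Sox9 (chromosome 11, 112782210 to 112787757), the gene of a regulator of cartilage and testis formation, had SOX2 peaks and no SOX15 peak within 50 kb. The reproducible region had folds of 10.5 and 12.5 in SOX2 replicates 1 and 2, with both summits 23.5 kb from the gene at higher coordinates. SOX2 replicate 2 alone had a peak at 13.8 kb, with a fold of 9.91. There was no other protein-coding gene within 50 kb, and the nearest gene of any kind to the reproducible region was the lncRNA gene Gm30562. The closest SOX15 summits were 3236.6, 925.9 and 2976.1 kb away in replicates 1, 2 and 3.

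Sox15 (chromosome 11, 69655037 to 69656727, plus strand) encodes 1 of the 2 factors mapped, and it lies in the most crowded window, with 11 other protein-coding genes. SOX15 replicate 2 had 3 peaks there, SOX15 replicate 3 had 2 and SOX15 replicate 1 had 0, while SOX2 replicate 1 had 2 and SOX2 replicate 2 had 1. All lay past the 3′ end of Sox15, between 9.57 and 47.5 kb from it, and none had Sox15 as its nearest gene. The reproducible SOX15 region (69671956 to 69672472) had folds of 4.96 and 6.51 in replicates 2 and 3, at percentiles 41.4 and 53.2, and SOX2 replicate 1 had a peak on it with a fold of 5.95, at percentile 14.0. It lies at an end of Eif4a1, the gene of an RNA helicase of translation initiation. SOX15 replicate 2 also had a peak inside Eif4a1 (fold 6.18) and 1 at the start of Cd68, the gene of a macrophage membrane protein (fold 4.54).

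The SOX15 peaks of this window touched 2 gene starts, whose upstream sequences are shown beside that of Sox15, where no library had a peak. They are the 250 bases before each start on the gene's own strand, from RefSeq (GRCm38.p6), 5′ to 3′, at chr11:69672424-69672673 (minus strand), chr11:69666171-69666420 (minus strand) and chr11:69654787-69655036 (plus strand). Capitals mark matches, on either strand, to ACAAAG, to the letters ACAATG, to the letters AACAAT (all 3 found in SOX sites) or to ATGCAAA (part of the octamer of OCT factors).
Eif4a1: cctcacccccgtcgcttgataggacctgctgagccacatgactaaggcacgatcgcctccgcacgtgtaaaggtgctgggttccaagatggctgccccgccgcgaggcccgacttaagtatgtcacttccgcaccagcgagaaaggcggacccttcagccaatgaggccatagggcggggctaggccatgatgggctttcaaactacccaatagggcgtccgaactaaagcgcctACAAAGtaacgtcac
Cd68: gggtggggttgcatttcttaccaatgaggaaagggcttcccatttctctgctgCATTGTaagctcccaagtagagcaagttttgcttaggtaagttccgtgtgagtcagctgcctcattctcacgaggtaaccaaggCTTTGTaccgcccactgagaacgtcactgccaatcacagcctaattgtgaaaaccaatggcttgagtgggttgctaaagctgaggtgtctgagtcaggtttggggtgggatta
Sox15: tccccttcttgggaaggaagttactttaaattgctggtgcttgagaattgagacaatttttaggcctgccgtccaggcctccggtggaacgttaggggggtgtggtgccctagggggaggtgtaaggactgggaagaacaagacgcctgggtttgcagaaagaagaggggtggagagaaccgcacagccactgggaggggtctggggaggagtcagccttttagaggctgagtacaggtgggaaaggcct
The SOX15 replicate 2 and replicate 3 peaks covered the last 49 and 39 bases of the Eif4a1 stretch, which hold its 1 match, ACAAAG. The SOX15 replicate 2 peak covered all 250 bases of the Cd68 stretch, which has 1 match to ACAAAG and 1 to ACAATG. The Sox15 stretch has 0 matches. Such matches are common: 16.5% of 32851 promoter windows hold ACAAAG in these 250 bases, 10.7% ACAATG, 9.42% AACAAT and 4.12% ATGCAAA, counting both strands, where AACAAT may overlap with ACAATG. Of the 10 SOX genes, 6 had a window (Sox1, Sox4, Sox11, Sox13, Sox15 and Sox21), and 0 of these held any of the 4 motifs; Sox3, Sox9, Sox17 and Sox18 were not matched. No peak of any library overlapped the window of a SOX gene.

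The last region near Sox15 was the farthest one counted for any of the 10 genes. Its summits were 47.5 kb from Sox15 in SOX15 replicate 3, and 47.4 kb in SOX2 replicates 1 and 2, with Tnfsf12, a ligand gene of the TNF family, about 8 kb away. The fold was 4.98 in SOX15 replicate 3, and 7.19 and 15.9 in the SOX2 libraries. It ranked lowest of the 6 reproducible SOX2 regions, at number 1165 of 2369. Just outside the 50 kb limit, Sox13 had a reproducible SOX2 region 68.2 kb away, with folds of 8.09 and 10.5 in SOX2 replicates 1 and 2.

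SOX15 replicate 3 had a peak on 4 of the 6 reproducible SOX2 regions near the 10 genes, those inside Sox13, near Sox21, near Sox18 and far from Sox15. SOX15 replicates 1 and 2 had one on 0 of the 6. Over all 2369 reproducible SOX2 regions the share was 7.81% for SOX15 replicate 3, and 3.04% and 3.00% for SOX15 replicates 1 and 2. The share of SOX15 replicate 3 varied with the rank of the SOX2 region: 53.0% of the first 100 regions, 14.0% of the next 400, 5.0% of the 700 after those and 3.51% of the remaining 1169. In the same order the shares were 6%, 4.5%, 2.29% and 2.74% for SOX15 replicate 1. For SOX15 replicate 2 they were 6%, 4.25%, 2.14% and 2.82%. Sox21 and Sox13, at numbers 48 and 54, belong to the first class, and the regions near Sox18 (number 597) and Sox15 (number 1165) to the third, as do the ones without a SOX15 peak near Sox9 (number 779) and near Ren1 (number 855).

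**Figure D3:**
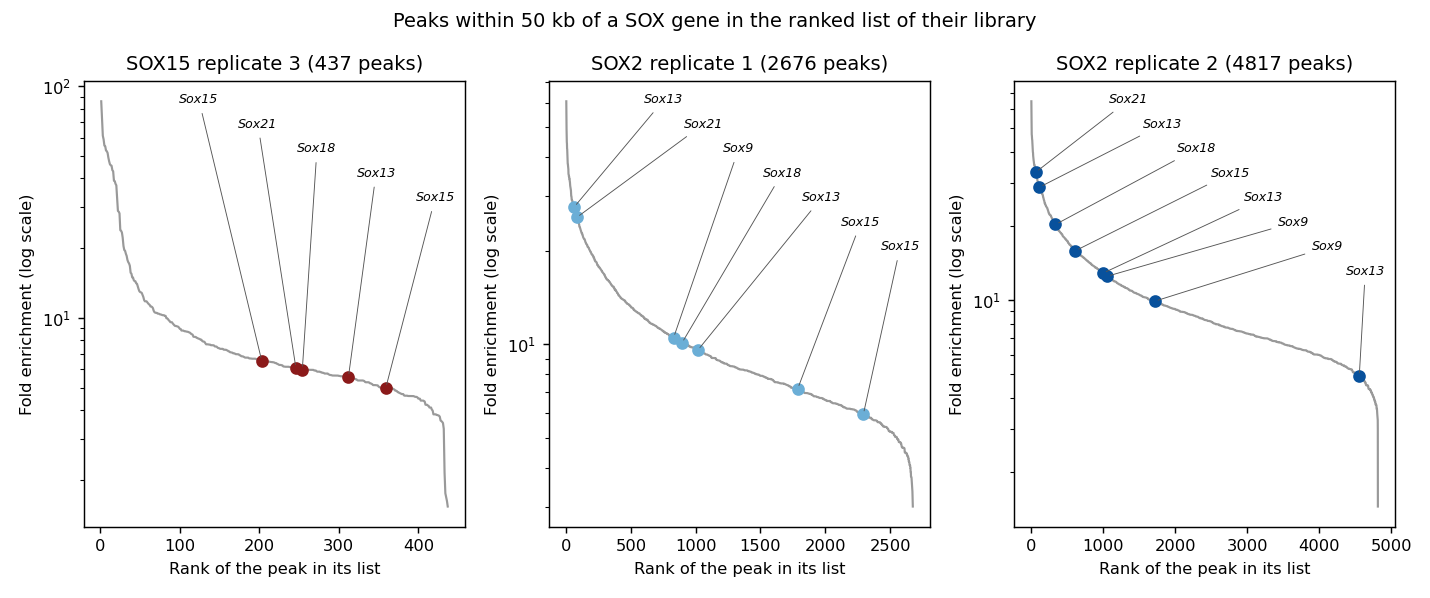
Deposited fold enrichment (log scale) against rank for every peak of SOX15 replicate 3, SOX2 replicate 1 and SOX2 replicate 2 (grey line), with the peaks within 50 kb of a SOX gene as labelled points. The 5 points of SOX15 replicate 3 lie between ranks 203 and 359 of 437, while Sox21 and Sox13 have points at ranks 61 to 114 of both SOX2 lists.

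On those 4 regions the peaks of SOX15 replicate 3 were weak ones of their list. Their −log10 q-values were 4.19 in Sox13, 4.52 far from Sox15, 4.81 near Sox18 and 4.95 near Sox21, against a list median of 6.34. The fold of the same peaks lay at percentiles 28.7, 17.7, 41.9 and 43.8. All 4 values fell below a −log10 q-value of 5, and with that minimum a SOX15 peak lay near 1 of the 10 genes, Sox15, in place of 4. The share of all genes at that minimum was not worked out, so the lower count cannot be read as particular to these genes. The part that the lower smallest −log10 q-value of this list has in the difference between SOX15 replicates was not tested.

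The 5 genes without a peak within 50 kb were those for the group B1 neural factors SOX1 and SOX3, the group C factors SOX4 and SOX11 of neural and other progenitors, and SOX17, a regulator of endoderm. The nearest SOX15 summit of any library was 400.4 kb away for Sox4, 1903.8 kb for Sox1, 3451.1 kb for Sox3, 4923.1 kb for Sox17 and 5685.8 kb for Sox11. The nearest SOX2 summit was closer for each: 82.5 kb for Sox1, 118.8 kb for Sox3, 305.2 kb for Sox17, 324.7 kb for Sox4 and 590.1 kb for Sox11. Of these SOX2 peaks, only that of Sox4 was in a reproducible region, with folds of 9.01 and 14.5 in SOX2 replicates 1 and 2, and it lay inside Cdkal1. For Sox1, Sox3, Sox17 and Sox11 the nearest SOX2 peak came from SOX2 replicate 2. The folds were 6.43, 7.65, 14.7 and 7.82, at percentiles 24.2, 42.1, 84.4 and 44.6. None of these 5 genes had another protein-coding gene within 50 kb.

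**Figure D4:**
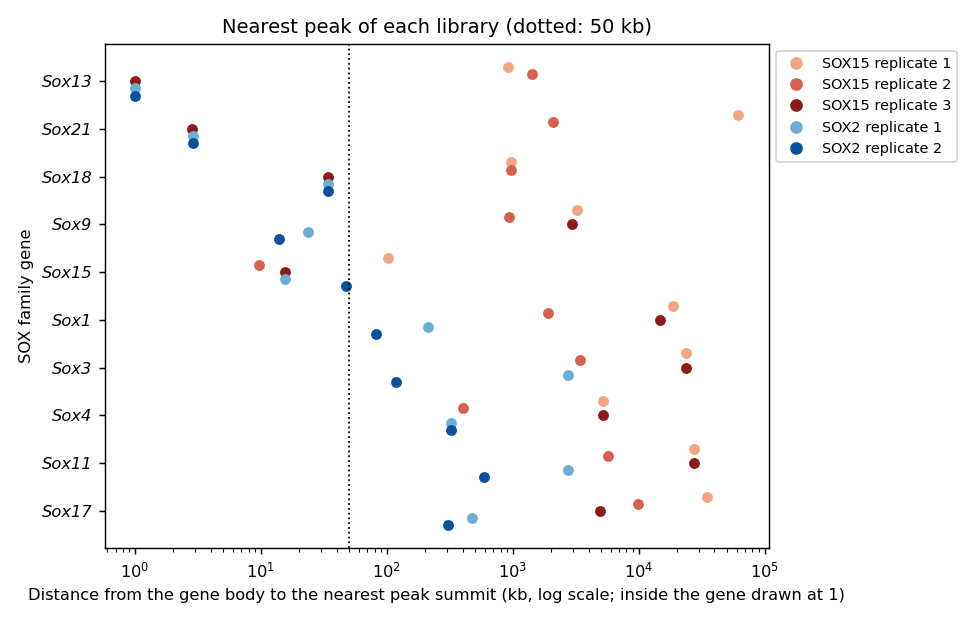
Distance in kb (log scale) from each SOX gene body to the nearest peak summit of each of the 5 libraries, with summits inside the gene drawn at 1 and a dotted line at 50 kb. The SOX2 points of the upper 5 genes lie left of the line, and those of SOX15 replicate 1 lie right of it for every gene, the closest being 101.9 kb from Sox15.

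The other 10 genes of the family were Sry, Sox2, Sox5, Sox6, Sox7, Sox8, Sox10, Sox12, Sox14 and Sox30. A reproducible SOX15 region lay near 0 of them, against 2.26% of all protein-coding genes. A reproducible SOX2 region lay near 4, Sox2, Sox5, Sox6 and Sox30, against 14.2% of all genes. Sry could not be called, since no list holds a peak on chromosome Y. The only SOX15 peak was in SOX15 replicate 2, 49.3 kb from Sox14, with a fold of 5.45. All 3 genes of group D had a SOX2 region inside the gene, a grouping singled out after the values were seen. At Sox5 the SOX2 folds were 8.29 and 10.6 in 1 region and 6.38 and 12.6 in the other, and at Sox6 they were 7.99 and 7.66, below those of 27.6 and 28.8 in Sox13. Sox5 and Sox6 are very long genes, of 953.9 and 569.9 kb, and 41.4% of the 227 genes of at least 500 kb had a reproducible SOX2 region inside the gene or within 50 kb of it, and 37.0% had one inside it. Sox13, at 42.2 kb, belongs to a size class of 10 to 100 kb in which 14.4% of genes had one inside or within 50 kb, and 3.71% had one inside. At Sox2 itself the strongest SOX2 peaks had folds of 33.3 and 35.3, with summits 1.61 and 1.59 kb past the 3′ end.

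The genes with the pattern most like that of Sox21 over the 5 libraries were Gabbr1, a receptor subunit for GABA, Il6st, the shared signal subunit of the LIF and interleukin 6 receptors, and Kcnh8, a potassium channel gene. Likeness was the Euclidean distance between percentiles of the strongest peak within 50 kb, with 0 for no peak, over all protein-coding genes more than 1 Mb from the 10. The distances were 2.70, 3.45 and 3.92 percentile points. Percentiles were 44.2, 41.0 and 46.6 in SOX15 replicate 3, 97.7, 98.8 and 99.7 in SOX2 replicate 1, and 96.2, 99.4 and 99.3 in SOX2 replicate 2, with no peak in SOX15 replicates 1 and 2. Sox21 itself stood at 43.8, 97.0 and 98.8 in SOX15 replicate 3 and SOX2 replicates 1 and 2.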

How the data were processed

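Peak lists of 3 SOX15-HA and 2 SOX2-HA ChIP libraries were used, grouped and numbered by sample title. Per the submitters' processing notes, Bowtie2, MACS2 and deepTools were used on build mm10; versions and the caller's control are not given in the sources used here. Each list belongs to 1 sample. The authors deposited, per peak, a fold enrichment (a linear ratio), a −log10 p-value and −log10 q-value, a summit offset and a score; the deposited score, 10 times the −log10 q-value with decimals dropped, was not used.

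Summits (peak start plus offset, counted from 1) were set against gene bodies of the RefSeq table of GRCm38.p6, which gives no strand; strand came from the promoter table where it had 1 value per gene. Peaks of 1 factor that overlapped by at least 1 bp were merged. Libraries were compared by an exact permutation test of the share of a list near the 10 genes. Counting was tested on simulated peaks. The members and lists were chosen with earlier results of these data known. All 10 genes were reported, and the other SOX genes by counts, with values for those with a reproducible region. Python 3.11.15, numpy 2.4.6, pandas 2.3.3 and matplotlib 3.10.9 were used. Alternatives were windows of 10 and 100 kb, a −log10 q-value of at least 5, 50% reciprocal overlap, nearest gene only, each library left out and a replicate block. Labels do not say that replicates were separate cultures, so p-values measure only the spread between these libraries.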

Additional observations from a re-analysis of the deposited data

How the results depend on the processing

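Within 10 kb, a reproducible SOX15 region lay near 0 genes, a reproducible SOX2 region near 2 and a SOX2 peak of any library near 2 (Sox13 and Sox21). With the nearest protein-coding gene only, the counts were 0 for reproducible SOX15 regions, 2 for SOX15 peaks of any library, 3 for reproducible SOX2 regions and 3 for SOX2 peaks of any library. With a −log10 q-value of at least 5, a SOX15 peak lay near 1 gene. The share of all genes was not worked out at these settings or with a library left out. Such counts therefore cannot be set against the 50 kb shares. Leaving out 1 library at a time gave 0 to 1 genes with a reproducible SOX15 region (0 without SOX15 replicate 2 or 3) and 1 to 4 with any SOX15 peak (1 without SOX15 replicate 3). With 1 SOX2 library left out, no region can be in both, so every peak of the remaining library was counted under this looser rule, and either library alone gave 5 genes. The other settings, a 100 kb window and 50% reciprocal overlap among them, left each count within 1.5 times its value. The difference in share of the lists was positive in every setting, between 0.00938 and 0.581 points, with exact permutation p-values of 0.333 to 1. The replicate block over numbers 1 and 2 gave 0.00938 points (exact permutation p = 1, smallest possible 0.5); the numbers name libraries and are not known to pair them. The 50 kb window decides which genes count, and depth is unknown, so weak peaks may be missing from the shorter lists.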

Other observations

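SOX2 regions were placed by gene end for the SOX genes with a known strand. These places, and the 5 kb limit, were chosen after the values were seen, so they are given without a test. Sry, on chromosome Y, was left out, since no list holds a peak on that chromosome. Of the 13 SOX family genes that remained, 3 (Sox2, Sox21 and Sox30) had a reproducible SOX2 region within 5 kb past the 3′ end, against 112 of 17274 protein-coding genes with a strand (0.648%). Within 5 kb before the 5′ end it was 0 of the 13, against 167 genes (0.967%), and inside the body 3 of the 13 (Sox5, Sox6 and Sox13), against 696 genes (4.03%). The last share is over genes of all lengths. Sox5 and Sox6 are longer than 500 kb, and 37.0% of genes of at least 500 kb had such a region inside. At Sox30, a gene of the male germ line, the summits lay 2.48 and 2.49 kb past the 3′ end, with folds of 7.40 and 11.2 in SOX2 replicates 1 and 2. Those folds are well below the 25.6 and 33.2 of Sox21 and the 33.3 and 35.3 of Sox2.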
